A study of Mus musculus with 148 samples.

Results

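The 3′ end of Lct and the DNA just beyond it were read as single CpGs on each strand. Members were all CpG cytosines on chromosome 1 from 128275000 to 128293400 (GRCm38) with more than 30 reads in at least 74 of the 148 samples. Of 298 CpG cytosines listed there, 177 met this rule and 121 did not. They are 177 of the 668 CpG cytosines that met the same rule in the Lct–Mcm6 locus and of 1549 in all targeted regions. The 177 cytosines lie in 102 CpG dinucleotides, 75 of them read on both strands, with 86 cytosines on the plus strand and 91 on the minus strand. Lct is transcribed from the minus strand, so its 3′ end, at 128284756, is its lowest coordinate and DNA downstream of it has lower coordinates still. In RefSeq, Lct spans 128284756 to 128328318 and Ubxn4, on the plus strand, 128243898 to 128279378, with its last exon from 128276957. Of the members, 127 lay in Lct from exon 17 back to intron 12, and 50 lay in the downstream flank.

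Lct encodes lactase, the brush-border enzyme of enterocytes that splits lactose into glucose and galactose. Its downstream neighbour Ubxn4, which encodes a UBX-domain protein of the endoplasmic reticulum, runs on the opposite strand, so the genes point towards each other. In mammals most CpGs outside promoters and enhancers carry a methyl group, which maintenance methyltransferases copy to the new strand at replication, and partly modified CpGs are often found where regulatory factors bind. Bisulfite turns unmodified cytosine into uracil, read as T, and leaves 5-methylcytosine and 5-hydroxymethylcytosine, so both marks were read together as DNA modification.

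The DNA came from villi enterocytes, isolated with a chelating method, of C57BL/6NCrl mice at postnatal day (P) 6, 60 or 90, for which the labels name no mutant allele or transgene. P60 mice on standard food and water gave 71 samples of 9 equal segments of the small intestine, numbered from the stomach to the colon, with 7 samples in segment 6 and 8 in every other one. P6 pups gave 3, 3 and 4 samples of segments 1, 3 and 7. P90 mice had received milk in place of water for their last 60 days, either lactose-containing milk sweetened with sucrose (LAC+, 7 samples in each of segments 1, 3, 4, 7 and 8) or lactose-free milk (lac-, 6 or 7 samples in the same segments), so sucrose differed between the diets as well as lactose. The sequence data hold no cell markers, and the enterocyte label was not checked here. In such bulk samples a change within enterocytes and a change in the mix of cells cannot be told apart. Several segments were taken from each mouse, and the design text names fewer mice per P60 segment than there are samples, so p-values measure the spread between these samples. Each P6 sample was sequenced on lane 8, which held no sample of another age, so age and lane cannot be told apart.

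The CpGs on which the results turn are given here in the GRCm38 reference sequence of RefSeq, 5′ to 3′, with member CpGs in capitals. The first stretch holds the CpGs that fell along the intestine, the next the tested CpG with the widest rise between segments 1 and 9, 128285272(+), and its neighbours, then a CpG read on both strands that rose, and last the least modified CpG of the region.
Downstream of Lct, chr1:128284589-128284755, plus strand: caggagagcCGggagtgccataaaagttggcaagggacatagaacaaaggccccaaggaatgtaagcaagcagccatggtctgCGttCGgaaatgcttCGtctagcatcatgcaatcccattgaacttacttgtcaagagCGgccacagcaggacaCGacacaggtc
Lct exon 17, coding, chr1:128285237-128285293, plus strand: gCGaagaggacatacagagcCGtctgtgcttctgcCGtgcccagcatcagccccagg
Lct intron 15, chr1:128286733-128286792, plus strand: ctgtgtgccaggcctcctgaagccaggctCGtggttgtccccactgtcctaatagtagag
Lct intron 12, chr1:128292056-128292115, plus strand: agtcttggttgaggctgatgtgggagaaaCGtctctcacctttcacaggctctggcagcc
The first stretch ends at the base next to the Lct transcript. The CpG of the Ubxn4 3′ untranslated region that differed most with age is given as 30 bases.
Ubxn4 last exon, chr1:128277806-128277835, plus strand: gaatggccagtctgCGgcttagattgctca

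DNA modification was high at nearly all of these CpGs (the map of P60 means along the region). The median of the P60 means was 92.4%, and 114 members lay above 90%, 57 from 60% to 90% and 6 below 60%. The 3 highest were 128278062(+) at 99.0%, 128278064(+) at 98.6% and 128278071(+) at 98.5%, which lie close together in the Ubxn4 last exon and were read by 1 probe. Spread within a segment was widest at 128288894(-), with a median SD of 7.52 points, 128275665(+) with 5.03 and 128288930(-) with 4.86, which had only 41, 89 and 41 reads in the median sample. By gene part, the 14 CpGs of Lct exon 16 had a median of 95.4% (93.1% to 97.2%) and the 9 of exon 14 had 96.7%, whereas the 16 of intron 14 had 88.0% and the 24 of intron 13 had 88.6%. Of the 6 members below 60%, 4 lay in a probe arm and the other 2 were both strands of a single CpG in Lct intron 12, 128292085(+) at 33.7% and 128292086(-) at 31.9%.

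**Figure D1:**
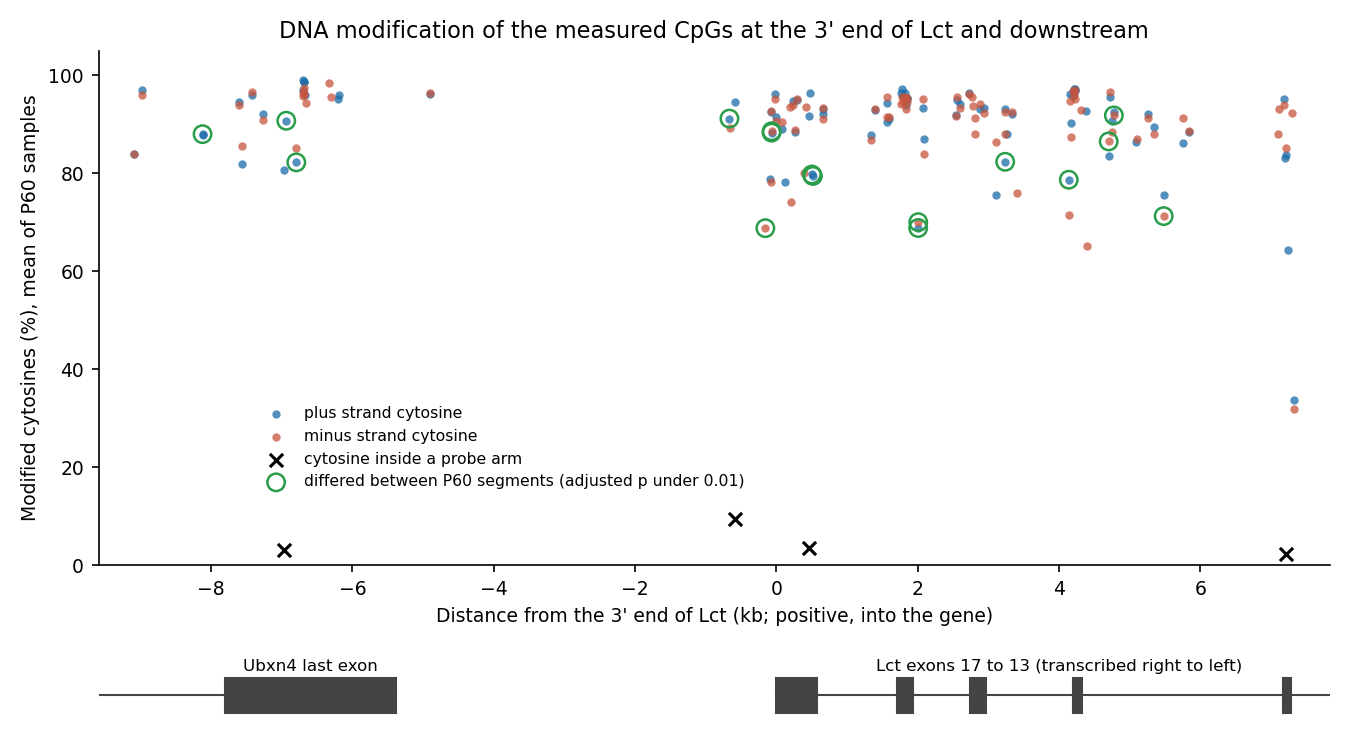
Mean percentage of modified cytosines over the 71 P60 samples (vertical axis) for each of the 177 CpG cytosines against its distance from the 3′ end of Lct in kb (positive into the gene), by strand, with exons drawn below. Crosses mark the 4 cytosines in a probe arm, at 2.39% to 9.48%, and rings mark the 16 that differed between P60 segments. Most points lie above 80%, and the pair near 33% at the right is the intron 12 CpG.

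A padlock probe is a DNA strand whose arms anneal on either side of a target and are joined into a circle after the stretch between them is copied. Bases read inside an arm are those of the synthetic probe, and 0 of the 304 probes of the locus had a C in an arm. The members were read by 66 probes. Of the 177, 169 lay between arms, 4 in an arm only and 4 had no matched probe. The arm cytosines are shown to set them apart from the rest. Each is the last base of its arm, on the minus strand, and the G after it is the first captured base, so that the reference has one base more than the arm. Capitals mark the CpG in the reference and the base at the same place in the study's probe.
Reference, chr1:128284163-128284189, minus strand: ccaccacaccaatgggagaagacaaCG
Arm: ttattatattaatgggagaagataaT
Reference, chr1:128285211-128285237, minus strand: ctcttgtgctgcttggagtttgcagCG
Arm: tttttgtgttgtttggagtttgtagT
Reference, chr1:128291965-128291992, minus strand: gagactaccctgaggtgatgaagacaCG
Arm: gagattattttgaggtgatgaagataT
In P60 samples these cytosines read 9.48% at 128284164(-), with single samples from 1.15% to 24.6%, 3.57% at 128285212(-) and 2.39% at 128291966(-). The fourth, 128277790(-), read 3.07%. Their plus-strand partners were captured between arms and read 94.5%, 91.7%, 83.7% and 80.6%. In the rest of the locus 16 of 491 CpGs were read only in an arm, with a median of 3.05% (0.739% to 8.88%) against 89.8% for the others. Values of arm cytosines are therefore given but not read as modification of the sample DNA. The median over the 173 members outside arms was 92.5%.

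The strands of a CpG mostly gave the same value. Over 71 CpGs read on both strands outside arms, the median absolute difference of the P60 means was 1.02 percentage points, and 5 differed by more than 5 points, 2 by more than 10 and 1 by more than 20. That CpG lies in Lct intron 13, where 128289143(+) was at 92.7% and 128289144(-) at 65.1%, with 4175.5 and 2323.5 reads in the median sample. The minus-strand reading stayed between 63.96% and 65.9% in the means of all 9 P60 segments. It was singled out after its values were seen, and its cause was not tested. Its minus-strand surroundings are given for reference.
Lct intron 13, chr1:128289114-128289173, minus strand: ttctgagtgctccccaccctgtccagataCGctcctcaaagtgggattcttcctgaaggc

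Depth was high. Reads summed over the members ranged from 183674 to 651353 per P60 sample, 381777 to 541704 at P6, 236468 to 1298311 in LAC+ and 232349 to 1326086 in lac- samples. The median member was read 1445.5 times in the median sample, although single members ranged from 32 to 16044.5. At cytosines outside CpGs in the region, which serve as a measure of incomplete conversion and low non-CpG modification together, 0.366% ± 0.023 (SD, n = 71) of reads were modified at P60, 0.454% ± 0.019 (SD, n = 10) at P6, 0.441% ± 0.020 (SD, n = 35) in LAC+ and 0.439% ± 0.021 (SD, n = 32) in lac- samples. P60 samples of each segment were spread over lanes 5, 6 and 7, apart from 1 segment 1 sample on lane 4, whereas LAC+ segments 1 and 4 were all on lane 3 and segments 7 and 8 all on lane 1. The sample LAC+ segment 3 replicate 7 stood alone on lane 2 and had the fewest reads of its diet.

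Which CpGs change along the adult intestine was asked first. Across the 9 P60 segments, 16 of 167 tested members (9.58%) differed, compared with 17.2% of all tested CpGs of the locus (quasi-binomial F test on read counts, Bonferroni over all tested cytosines, adjusted p under 0.01). From segment 3 to segment 9, 13 of them were higher and 3 lower. The 13 that rose were lowest in segment 1 (9 CpGs), 2 (3 CpGs) or 3 (1 CpG), and 8 were highest in segment 9. The segment means of the 16 spanned 2.36 to 11.8 percentage points (median 6.62). They were read by 13 probes, so a few share a capture. With limma on log2 odds and the same correction, 7 members were called (11.9% of the locus), and with Benjamini-Hochberg adjustment at 0.05 the number was 28 (29.4% of the locus).

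**Figure D2:**
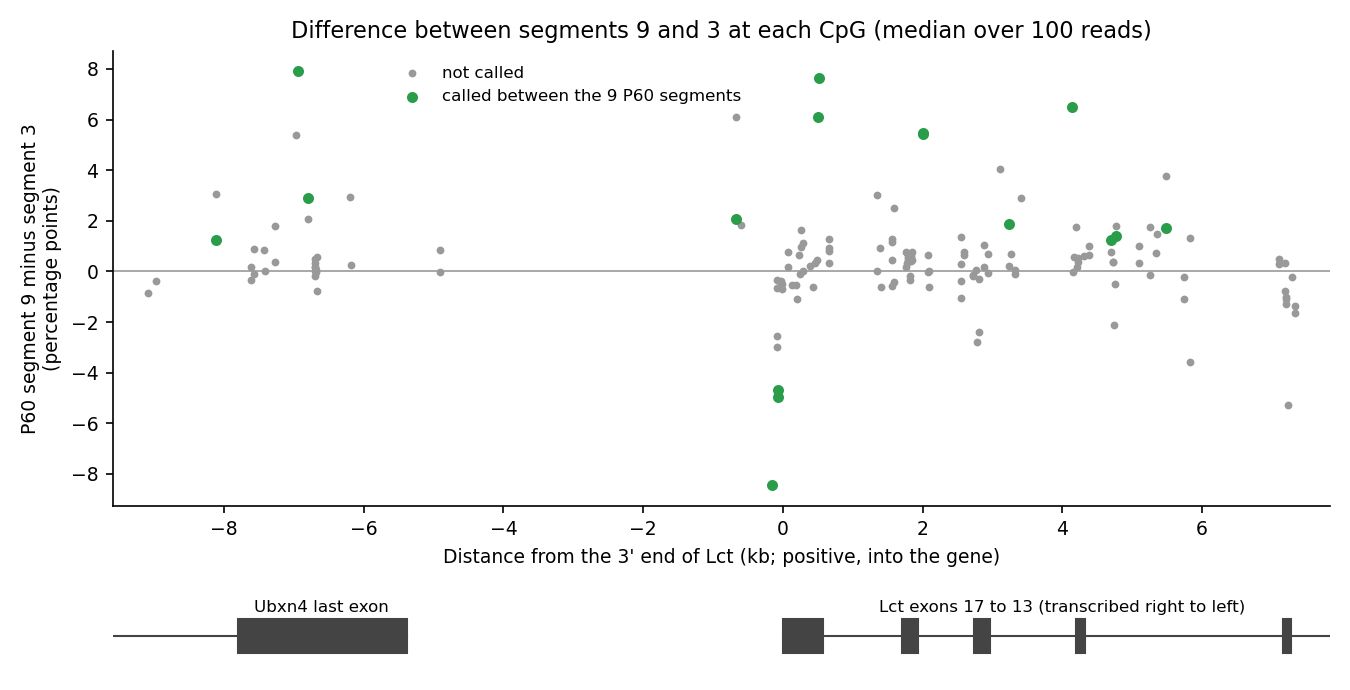
Mean of P60 segment 9 minus mean of segment 3 (percentage points, 8 samples each) for each CpG with a median of over 100 reads, against its distance from the 3′ end of Lct in kb. Green points are the 16 CpGs called between the 9 segments, from -8.44 at the CpG 157 bp downstream of Lct to 7.90 in the Ubxn4 last exon.

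The CpGs that fell all lie within 157 bp beyond the end of the gene, with CpGs that were not called between them. They are 128284599(-), 157 bp downstream of the last base of Lct, and both strands of a CpG 69 and 68 bp downstream, 128284687(+) and 128284688(-). At 128284599(-), P60 samples ran from 71.3% to 73.9% (median 72.1%) in segment 1, from 67.98% to 72.8% (median 70.9%) in segment 3 and from 59.8% to 66.1% (median 61.1%) in segment 9. Segments 3 and 9 did not overlap. The difference was -8.44 percentage points (exact permutation test, two-sided, p = 0.00016, the smallest that 12870 splits of 8 against 8 allow), with an adjusted p over the 9 segments of 1.6e-08 (quasi-binomial F test, Bonferroni). The permutation test takes samples as independent, although segments share mice. Here and below it was run at CpGs picked by the F test on the same samples, so it is not separate support. At 128284688(-), samples ran from 88.6% to 91.4% (median 90.2%) in segment 3 and from 83.6% to 87.9% (median 84.5%) in segment 9, again without overlap. It differed by -4.97 points (exact permutation p = 0.00016), with an adjusted p of 1.8e-11 by the same F test. Its plus-strand partner 128284687(+), read by another probe, differed by -4.70 points (exact permutation p = 0.00016) with an adjusted p of 3.3e-07, and the segments did not overlap there either.

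The 8 other members between 128284599 and the end of Lct were also lower in segment 9 than in segment 3, with differences from -0.329 to -2.97 points, and did not pass the test. The largest of these differences, -2.97 and -2.53 points, were at both strands of a CpG between the ones that fell, 128284672(+) (adjusted p = 0.1) and 128284673(-) (adjusted p = 0.027). Against segment 1, not all of the 8 members were lower in segment 9, with differences from -4.06 to 0.883 points. In the whole gap between Ubxn4 and Lct, 5377 bp long, 4 of the 16 members outside arms were higher in segment 9 than in segment 3. In the Lct 3′ end 84 of 125 were. Set against segment 1, the numbers higher in segment 9 were 8 of 16 and 102 of 125. The gap members include the 3 called CpGs that fell. The 1 called CpG of the gap that rose, 128284091(+), lies 665 bp downstream of Lct and went from 90.4% ± 1.23 to 92.4% ± 0.924 (SD, n = 8; exact permutation p = 0.0019).

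Among tested members, the widest rise from segment 1 to segment 9 was in the coding part of Lct exon 17, the last exon. At 128285272(+), 516 bp inside the gene, P60 samples ran from 67.4% to 76.96% (median 72.2%) in segment 1, from 73.1% to 78.7% (median 76.8%) in segment 3 and from 81.5% to 86.2% (median 83.99%) in segment 9. All segment 9 samples lay above all samples of segments 1 and 3. The segment means went from 72.1% ± 3.18 in segment 1 to 83.9% ± 1.56 in segment 9 (SD, n = 8), a span of 11.8 points and the widest of the tested members outside arms, with an adjusted p of 1.6e-12 (quasi-binomial F test, Bonferroni). The difference between segments 9 and 3 was 7.63 points (exact permutation p = 0.00016). Its neighbour 15 bases away, 128285257(+), was read by the same probe and went from 74.9% ± 2.72 in segment 1 to 82.8% ± 1.88 in segment 9, with segments 3 and 9 overlapping (difference 6.09 points, exact permutation p = 0.00031). The minus strand of neither CpG was among the members.

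In Lct intron 15, both strands of a CpG 2 kb inside the gene rose together although different probes read them. At 128286762(+), samples ran from 62.7% to 67.9% (median 66.3%) in segment 1 and from 69.5% to 74.7% (median 73.6%) in segment 9, without overlap. At 128286763(-) they ran from 57.6% to 68.3% (median 63.9%) in segment 1 and from 69.5% to 77.3% (median 74.00%) in segment 9, also without overlap. The differences between segments 9 and 3 were 5.48 and 5.42 points (exact permutation p = 0.00031 and p = 0.0075), with some overlap. These are among the least modified members outside arms, at 68.8% and 70.02% over all P60 samples.

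Farther into the gene, 128288893(+) in intron 14 went from 73.3% ± 5.06 in segment 1 to 82.8% ± 2.46 in segment 9. In intron 13, 128289458(-) rose early: it was at 82.4% ± 1.80 in segment 1, 86.02% ± 1.17 in segment 3 and 87.5% ± 0.782 in segment 4, and stayed from 87.1% to 87.8% beyond it. Also called in intron 13 were 128289531(-), with segment means spanning 2.36 points, and 128290236(-), with 4.54 points. In intron 14, 128287993(+) spanned 4.20 points.

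In the Ubxn4 flank, 3 CpGs were called. At 128277820(+), in the 3′ untranslated region 6.94 kb from the end of Lct, samples ran from 81.4% to 91.3% (median 86.4%) in segment 3 and from 92.9% to 96.8% (median 93.7%) in segment 9, without overlap (difference 7.90 points, exact permutation p = 0.00016). Its probe gave 453 reads in the median sample. At 128277962(+), read by another probe, the difference was 2.91 points (exact permutation p = 0.00078), and at 128276635(+), in the last Ubxn4 intron, 1.26 points (exact permutation p = 0.096), since most of its change lay between segments 1 and 3. Without P60 segment 1 replicate 4, the only P60 sample on lane 4, the calls at 128276635(+), 128287993(+) and 128290236(-) were lost (adjusted p = 0.0153, 0.0177 and 0.0316), as they were with lane as a covariate.

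**Figure D3:**
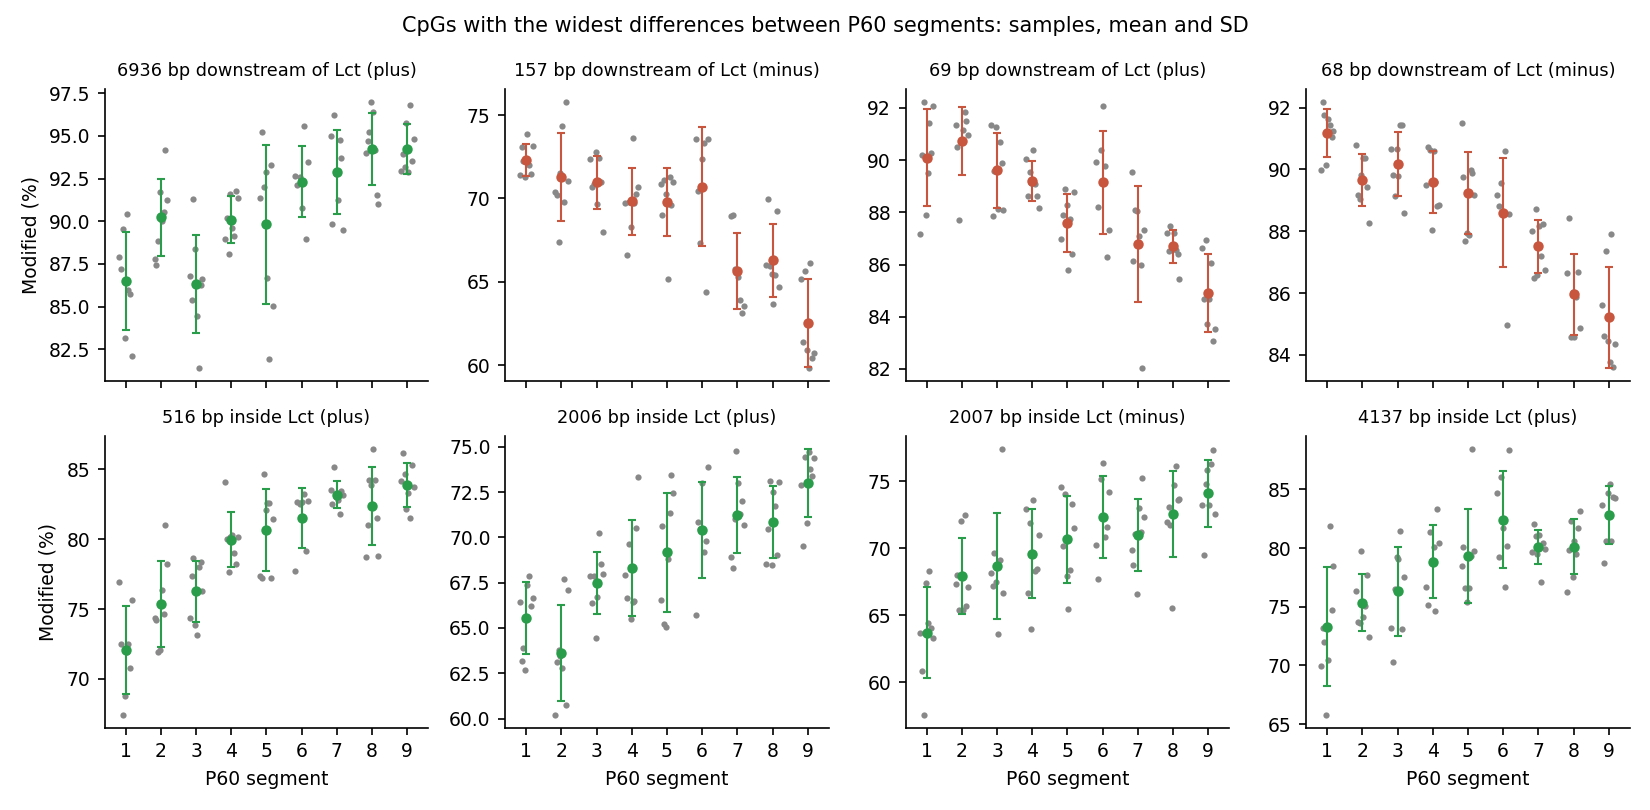
Percentage of modified cytosines at the 8 CpGs called between P60 segments with the widest span of segment means, by segment 1 to 9. Gray points are samples, coloured points with bars are mean and SD, green for CpGs higher in segment 9 than in segment 3 and red for those lower, and each panel has its own vertical scale. The 3 red panels, 157, 69 and 68 bp downstream of Lct, go down along the intestine and the others go up.

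Segment differences were set beside those of the rest of the locus. Outside arms, the median span of P60 segment means was 2.20 points over the members. It was 3.86 over the rest of Lct and 2.23 over the DNA upstream of Lct. The widest spans were 11.8, 48.97 and 63.2 points, where the 11.8 holds for tested members only. The untested member 128288894(-) was at 53.8% in segment 1 (n = 6) and 80.7% in segment 8 (n = 4). It had medians of 33.5 and 31 reads there. Of the tested CpGs outside arms, 9.82% of the members were called, 22.2% of the rest of Lct and 18.4% upstream. Lowest levels in segment 9 among called CpGs were found for 3 members, 1 CpG of the rest of Lct and 0 upstream. No test of the difference between these sets was made.

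Averaged over its 127 members, the Lct 3′ end went from 86.4% ± 0.585 in segment 1 to 87.5% ± 0.377 in segment 3 and 88.1% ± 0.315 in segment 9 (SD over 8 samples in each). The downstream flank went from 87.5% ± 0.316 to 87.7% ± 0.240 and 88.1% ± 0.207. In the Lct 3′ end segments 1 and 9 did not overlap, at 85.8% to 87.5% against 87.8% to 88.7%. These means include 2 arm cytosines each. Without them the Lct 3′ end was at 87.8%, 88.9% and 89.5% and the flank at 90.9%, 91.1% and 91.6% in segments 1, 3 and 9. Weighted by reads instead, the flank turned round, at -0.567 points for segment 9 minus segment 1.

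Whether the adult pattern was present in the older, milk-fed mice was asked next. Across segments 1, 3, 4, 7 and 8, 3 of 165 members differed in lac- mice (4.05% of the locus) and 4 of 177 in LAC+ mice (4.33% of the locus), by the same F test. The 3 in lac- mice were 128285272(+) (adjusted p = 2.3e-05), 128289458(-) (2.5e-05) and 128285257(+) (0.0029). The 4 in LAC+ mice were 128289144(-) (3.9e-05), 128285257(+) (6.5e-05), 128288893(+) (0.00013) and 128285272(+) (0.00044). At the exon 17 CpG 128285272(+), lac- samples ran from 63.4% to 73.0% (median 68.8%) in segment 1 and from 77.97% to 83.8% (median 81.6%) in segment 8. LAC+ samples ran from 65.8% to 76.1% (median 68.4%) in segment 1 and from 77.5% to 80.4% (median 79.1%) in segment 8. Segments 1 and 8 overlapped in neither diet. The 16 CpGs called at P60 had the same sign of the difference between segments 8 and 3 in both diets, and of that between segments 7 and 1. The share of all members that kept their sign is not given here. At P60, 130 of the 173 members outside arms were higher in segment 9 than in segment 1, and 112 than in segment 3. A shared direction was thus common among the members. With limma 2 members were called in lac- (2.49% of the locus) and 3 in LAC+ (1.2%), and with Benjamini-Hochberg adjustment 32 (29%) and 29 (23.8%).

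Segment and lane overlapped at P90, and in LAC+ mice, where lane 3 held segments 1 and 4 and lane 1 nearly all of segments 3, 7 and 8, differences between these sets of segments cannot be told apart from lane. In lac- mice segments 1 and 4 were on lanes 3 and 5 only. Segments 3, 7 and 8 were on lanes 1, 6 and 7, apart from 1 segment 3 sample on lane 3. Only that sample shares a lane across the 2 sets, so lane can hardly be told apart there either. With lane as a covariate, chosen after seeing the data, 0 members were called in lac- (0.467% of the locus) and 1 in LAC+ (2.24% of the locus), 128288893(+) (adjusted p = 0.0095). At 128289144(-), LAC+ samples on lane 3 were at 66.5% to 70.1% (mean 68.1%, n = 14) and those on lane 1 at 61.1% to 68.1% (mean 64.3%, n = 20). Within lane 1, segment 8 minus segment 3 was -0.0572 points at this CpG. Between the same groups of samples 128285272(+) was 8.89 points higher in segment 8 than in segment 3, 128285257(+) 5.91 points and 128288893(+) 6.38 points, and all 16 CpGs called at P60 kept their sign. The share of all members that did so within lane 1 is not given here.

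In pups the segments were not told apart, but with 3, 3 and 4 samples this does not show that a gradient was absent. On simulated counts for P6 against P60 in segment 7, the F test called 1.75% of 5-point and 40.7% of 10-point shifts. Across the P60 segments it called 86.8% of 5-point shifts. The comparison of the P6 segments was not simulated, so these rates do not measure what it could detect. Across P6 segments 1, 3 and 7, 0 of 164 members and 0% of the CpGs of the locus were called by the F test, 0 by limma and 0 with Benjamini-Hochberg adjustment, and 7 had an unadjusted p under 0.05 (9.39% of the locus did). At 128285272(+), P6 samples were at 81.1%, 83.8% and 91.2% in segment 1, 79.6%, 84.8% and 86.6% in segment 3 and from 79.7% to 90.7% in segment 7, with the segments overlapping. At 128284599(-) they were at 74.8%, 77.1% and 79.3% in segment 1, 57.6%, 68.1% and 77.7% in segment 3 and from 62.03% to 70.3% in segment 7, so that segments 1 and 7 did not overlap (F test over the 3 segments, adjusted p = 1). The lowest p was at 128288893(+), higher in segment 7 than in segment 3 by 4.19 points (quasi-binomial F test, p = 0.0157, adjusted p = 1). Of the 16 CpGs called at P60, 12 had the P60 sign of the difference between segments 7 and 1. The share of all members with their P60 sign at P6 is not given here. The count therefore does not show that the adult pattern was present in pups.

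The ages were compared within segments 1, 3 and 7. By the F test 0 of 166, 0 of 165 and 0 of 167 members differed between P6 and P60, against 0.624%, 0.623% and 0.93% of the locus. Unadjusted p-values under 0.05 were found for 39, 35 and 54 members (35.4%, 31.3% and 42.8% of the locus). With Benjamini-Hochberg adjustment 9, 7 and 23 members were called (11.7%, 10.7% and 21.7% of the locus), and limma with Bonferroni called 0, 0 and 1 (0.775% of the locus in segment 7). Called with Benjamini-Hochberg adjustment in all 3 segments were 128276635(+), 128276642(+) and 128277820(+), all in Ubxn4 and all higher at P60.

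The widest age difference was at 128277820(+). P6 samples were at 64.9%, 53.01% and 61.3% in segment 1, 72.8%, 47.01% and 49.8% in segment 3 and 68.2%, 53.3%, 45.8% and 63.6% in segment 7. P60 samples ran from 82.1% to 90.4% (median 86.6%), from 81.4% to 91.3% (median 86.4%) and from 89.5% to 96.2% (median 93.2%). The ages did not overlap in any of these segments, and P60 was higher by 26.8, 29.8 and 35.2 points (adjusted p = 0.024, 0.574 and 0.0185, quasi-binomial F test with Bonferroni). The counting intervals of the P6 values (Wilson, 95%) reached 3.28 to 4.01 points to either side, narrower than the spread between the pups. Such intervals cover counting error only. Without P6 segment 3 replicate 1, the highest pup there, 2 pups remained in segment 3, below the 3 samples per group required otherwise. The segment 3 difference was then 37.9 points and was called (same F test, adjusted p = 0.000874), and 2 members were called instead of 0 (2.26% of the locus). Leaving out the highest pup both widened the difference and narrowed the spread, so this call is not separate support.

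A CpG 31 bases away on the same probe and strand, 128277789(+), singled out after its values were seen, showed the same order. It was at 61.99% ± 11.4, 53.6% ± 11.6 and 51.6% ± 9.17 in P6 segments 1, 3 and 7 (SD, n = 3, 3 and 4) and at 81.1% ± 3.91, 78.7% ± 2.58 and 79.4% ± 5.09 at P60 (SD, n = 8), without overlap of the ages (adjusted p = 1, 0.741 and 0.408). In P90 mice it had means from 78.8% to 84.1% over the segments and diets, and 128277820(+) had means from 87.3% to 93.1%. At both CpGs the P6 means were thus the lowest. At both called CpGs of Lct exon 17, read by the same probe, the order was the opposite. This does not hold for the whole exon. In its 3′ untranslated region, 128285020(+) had P60 minus P6 at 7.33, 5.32 and 4.71 points in segments 1, 3 and 7. At 128285272(+) P60 minus P6 was -13.3, -7.40 and -3.68 points in segments 1, 3 and 7, and the ages did not overlap in segments 1 and 3. At 128285257(+) it was -11.3, -6.86 and -4.24 points, without overlap in segment 1. Neither passed the F test (adjusted p from 0.442 to 1), and both were called in segment 1 with Benjamini-Hochberg adjustment. Whether the age difference varied between segments was tested as an interaction, which called 0 of 164 members (0% of the locus; 30 members, against 16.7% of the locus, at an unadjusted p under 0.05; 0 with limma or Benjamini-Hochberg adjustment).

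**Figure D4:**
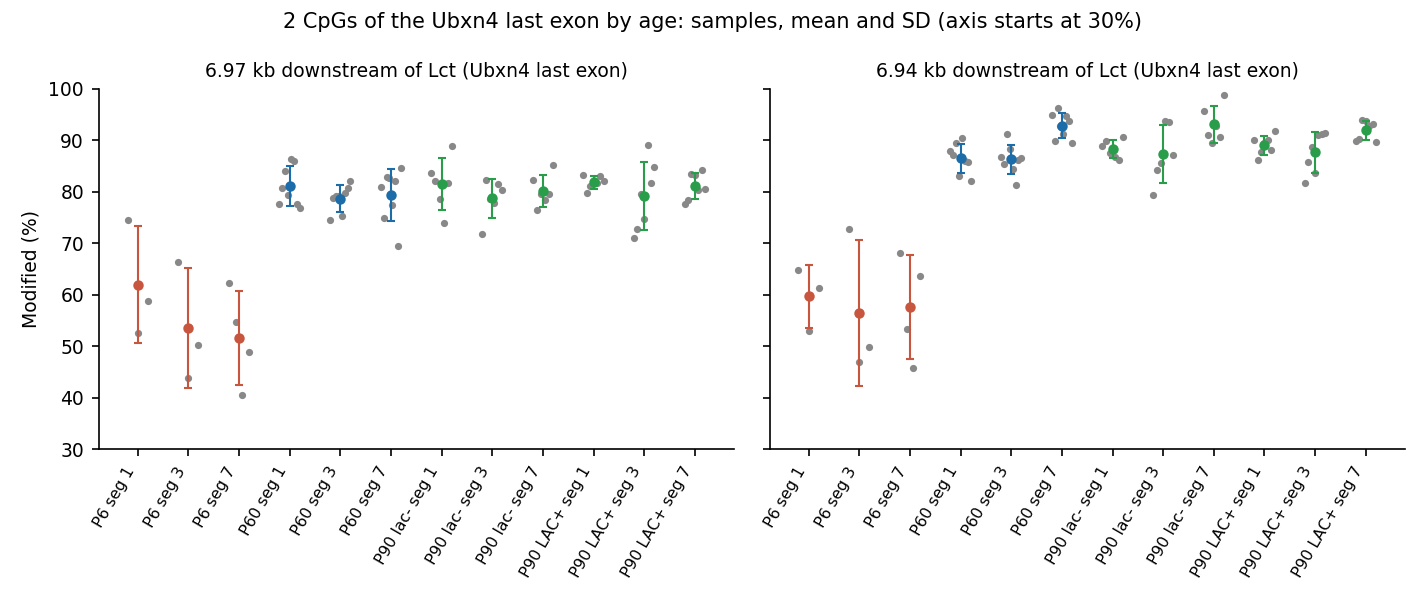
Percentage of modified cytosines at 128277789(+) (left) and 128277820(+) (right), 6.97 and 6.94 kb downstream of Lct, in segments 1, 3 and 7 of P6 (red), P60 (blue) and P90 (green) mice. Gray points are samples and coloured points with bars are mean and SD; the axis starts at 30%, and P6 samples, at 40.6% to 74.6%, have the lowest mean in each segment.

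The diets were compared at CpGs of at most 90% modification. The F test called 0 of 87, 75, 83, 63 and 65 members in segments 1, 3, 4, 7 and 8, and 0% of the CpGs of the locus in each. Unadjusted p-values under 0.05 were found for 2, 6, 7, 12 and 10 members (6.76%, 5.32%, 5.93%, 14.2% and 20.5% of the locus), limma called 0, and Benjamini-Hochberg adjustment called 0 in segments 1, 3, 4 and 7 and 3 in segment 8 (4.52% of the locus). The lowest p of segments 1, 3, 4 and 7 were at 128285421(-), 128288930(-), 128285020(+) and 128290504(+), with LAC+ minus lac- at -1.80, 14.1, -2.73 and -3.69 points (adjusted p = 1, 1, 0.806 and 1), the 14.1 points at a cytosine with 41 reads in the median sample. The 3 of segment 8 were 128276635(+), with LAC+ minus lac- at -4.89 points (adjusted p = 0.317), 128291960(-) in exon 13, at 2.74 points, and 128292085(+) in intron 12. The interaction of diet and segment called 0 of 69 members (0% of the locus; 4 members, against 5.95% of the locus, at an unadjusted p under 0.05; 0 with limma or Benjamini-Hochberg adjustment).

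The intron 12 CpG moved with the kind of file. The names of 41 P90 files (29 LAC+ and 12 lac-) mark them as merged, and 26 (6 LAC+ and 20 lac-) are single; the merged ones held more reads (median 710871 against 320830 over the members). At 128292085(+), merged files averaged 45.1% ± 4.12 (SD, n = 41) and single files 33.8% ± 6.50 (SD, n = 26), and at 128292086(-), the other strand, 44.9% ± 4.58 and 32.6% ± 6.84. Within groups of 1 segment and diet merged files were higher in 8 of 8 groups that had both kinds, by 9.43 and 10.4 points on average. The P60 samples, all in single files, ran from 27.03% to 44.2% and from 20.3% to 41.3%. Of the single P90 files, 25 ran from 27.9% to 39.996% and from 28.03% to 39.1%, and the last, LAC+ segment 3 replicate 7, was at 62.1% (Wilson 95% interval 59.6% to 64.5%) and 62.5% (59.8% to 65.2%). In segment 8, 128292085(+) was at 44.5% ± 6.18 in LAC+ and 35.2% ± 2.41 in lac- (SD, n = 7 each), but 6 of 7 LAC+ files and 1 of 7 lac- files were merged. Where the diets shared lane 3, with merged files only, LAC+ differed from lac- by 0.847 points in segment 1 and by -0.507 in segment 4. Among all members, an average difference of more than 5 points between merged and single files within groups was found for 4: this pair and both strands of a CpG downstream of Lct, 128284091(+) and 128284092(-), at -5.15 and -5.33 points for merged minus single. The median over the members was -0.409 points. The part of merging in these differences was not tested.

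**Figure D5:**
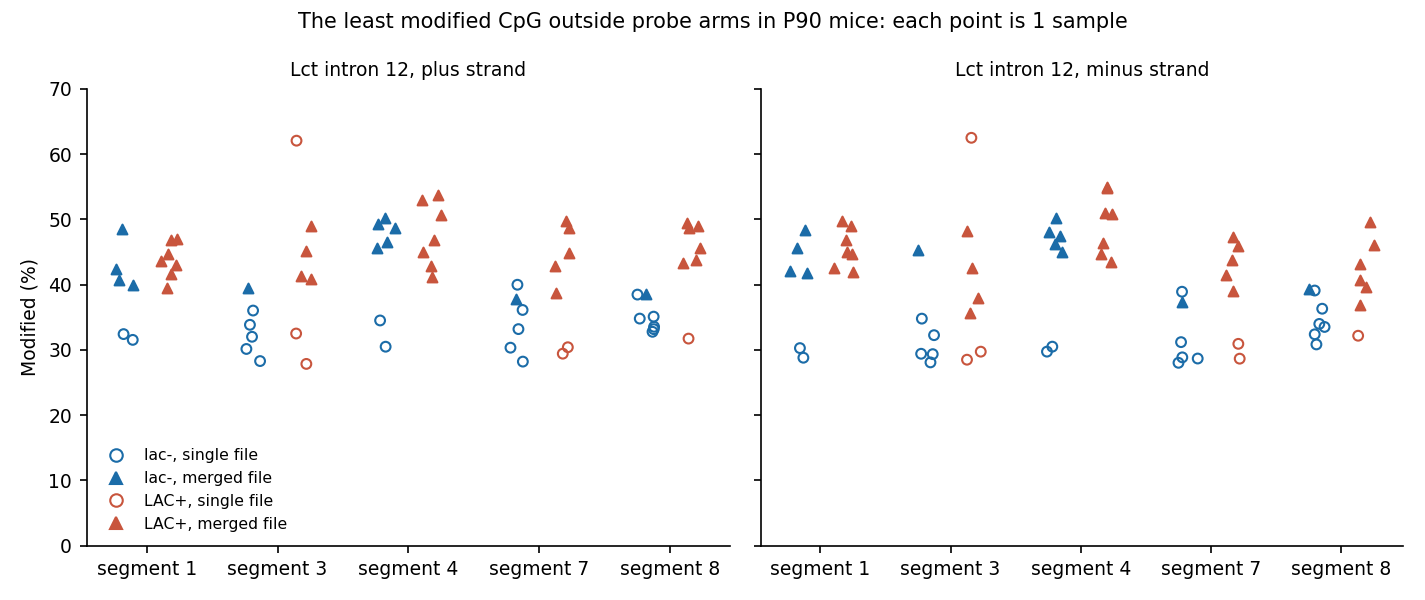
Percentage of modified cytosines at both strands of the Lct intron 12 CpG (128292085(+) left, 128292086(-) right) in P90 samples, by segment and diet. Filled triangles are samples from merged files and open circles from single files. Merged files average higher in 8 of 8 groups with both kinds, and the highest circle is LAC+ segment 3 replicate 7, at 62.1% and 62.5%.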

How the data were processed

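The authors deposited, for each of 148 samples, the counts of modified and unmodified reads per cytosine, made from padlock-probe bisulfite sequencing of the targeted regions. Per the labels, the submitters' processing notes name Trimmomatic 0.32, Bismark and the builds GRCm38 and mm10. From these counts the percentage of modified reads was computed per cytosine and strand, with more than 30 reads required for a value. Each cytosine of the 100000 bp from the start of the region was fitted with a quasi-binomial model of its counts (dispersion at least 1) with segment, age or diet as the factor, at least 3 samples per group, and Bonferroni adjustment over all tested cytosines, called at an adjusted p under 0.01. CpGs of over 90% modification were left out of the diet tests. limma 3.58.1 (R 4.3.3) on log2 odds with a pseudocount of 0.5 and Benjamini-Hochberg adjustment at 0.05 were alternatives, and the model was tested on simulated counts. Other steps used Python 3.11.15, numpy 2.4.6, pandas 2.3.3 and scipy 1.17.1. Exact permutation tests are two-sided.

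The named CpGs are the called ones, those of lowest p in each comparison, the 3 highest and the 3 lowest means and the 3 widest within-segment SDs; others are said to have been singled out after their values were seen, as were 128276642(+), 128291960(-), 128292085(+), its other strand and 128284672 and 128284673. The members and the rules were chosen with earlier results of these data known. Gene parts and reference sequences are from RefSeq for GRCm38, and probe arms are the study's designed sequences. Lanes and merged files were read from the file names. Labels do not tie samples to mice, although file names of P60 and P90 samples hold an animal number. Samples were taken as paired only if every same-numbered pair correlated above 0.1 in its deviations from the group means, and no set met this. A single pair at or below 0.1 fails this rule, so it cannot show that samples came from different mice. By replicate number the mean correlation was 0.0381 at P60 (110 of 280 pairs above 0.1), 0.421 at P6 (7 of 9), -0.0104 in lac- (21 of 61) and 0.0396 in LAC+ mice (32 of 70), and by animal number 0.0903 at P60 (130 of 280) and 0.180 in lac- mice (31 of 58). Pairs with different replicate numbers averaged -0.00532 at P60, -0.148 at P6, 0.00174 in lac- and -0.00736 in LAC+ mice. Pairs with different animal numbers averaged -0.0128 at P60 and -0.0297 in lac- mice. Other targeted regions were not used here apart from the counts of CpGs.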

Additional observations from a re-analysis of the deposited data

Results flagged for a closer look

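In 4 of the 88 groups of samples checked (the means of the flank and of the Lct 3′ end in every group of 4 or more samples, and the 16 CpGs called at P60 in segments 1, 3 and 9), 1 sample lay farther from the others than Dixon's 95% limit allows, and chance alone flags about 1 in 20 groups. The mean over the downstream flank was 86.2455% in P60 segment 2 replicate 2, against 87.2% to 88.0473% in the others of that segment. The same mean was 86.4052% in P90 LAC+ segment 8 replicate 7, against 87.1% to 87.5%. At 128286763(-) in Lct intron 15, P60 segment 3 replicate 7 was at 77.3734% (Wilson 95% interval 74.0% to 80.5%, 632 reads), against 63.6% to 69.7%. At 128290236(-) in Lct intron 13, P60 segment 3 replicate 4 was at 66.143% (64.2% to 68.002%, 2419 reads), against 70.6% to 73.6%. Causes were not tested.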

How the results depend on the processing

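Of 248 values for single CpGs under an alternative, 26 lost the threshold, 6 gained it and 0 changed direction. Of 148 counts and region means, 123 stayed close to the value given, 24 moved and 1 reversed. At P60, 13 of 16 calls held under every Bonferroni setting of the quasi-binomial test. With Benjamini-Hochberg adjustment the counts were 28 at P60, 32 in lac- and 29 in LAC+ mice, 9, 7 and 23 for age in segments 1, 3 and 7, and 3 for diet in segment 8. With limma they were 7 at P60 and 1 for age in segment 7. With lane as a covariate, added after seeing the data for P90, lac- fell to 0 and LAC+ to 1, and with the animal number of the file name lac- rose to 5. With replicate number as a block, 15 members were called at P60, 2 in lac- and 6 in LAC+ mice and 0 in the P6 and age comparisons. Leaving out single samples gave 0 to 2 members for age in segment 3, the 2 without P6 segment 3 replicate 1, which left only 2 pups there. The flank mean of P60 segment 1 was 89.5% over pooled reads, 88.6% over CpGs read in every sample and 90.9% without arm CpGs; that of segment 9 was 87.5% over 100 reads, 88.98% pooled, 88.96% over CpGs read in every sample and 91.6% without arm CpGs. Pooled reads turned segment 9 minus segment 1 to -0.567. The Lct 3′ end was at 85.6% pooled and 87.8% without arm CpGs in segment 1, and at 87.2% and 89.5% in segment 9. The animal factor was not run for P6 segments and the interaction of age and segment, as P6 file names do not give animal numbers. The means without arm CpGs and the merged file as a covariate for diet, which called 0 members in every segment, were added after seeing the data. Depth limits CpGs such as 128288894(-), with 41 reads in the median sample, and the 3 or 4 pups per segment limit the age comparison and that of the P6 segments.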
